A study of Mus musculus with 21 samples.

Results

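The 7 genes described here are 3 forkhead transcription factors (Foxo1, Foxo3 and Foxp1), 3 members of the BTG/Tob family (Btg1, Btg2 and Tob1) and Tsc22d3, all of which are known for restraining growth in resting lymphocytes. They were chosen by gene name, with earlier results of these data known, and each name matched 1 gene. They are 7 of the 47643 genes in the count table and 7 of the 15300 genes with at least 10 reads over all samples. RNA was measured by 3′ mRNA sequencing in splenic CD4+ T cells of Tg4 Tiger Nr4a3-Tocky mice, with 3 mice in each of 7 groups. All groups, the control included, carried the Tg4 transgenic T cell receptor, which recognises a myelin basic protein (MBP) peptide, the Tiger reporter (green fluorescent protein expressed from the Il10 gene) and the Nr4a3-Tocky reporter, a Timer protein that is blue when newly made and red once matured and that reports receptor signalling. The control mice were untreated, and the others received the [4Y] MBP peptide at 0.8 µg or 80 µg under the skin without adjuvant and spleens were taken after 4 h, 12 h or 24 h. Per the study's methods, the gate took Blue+Red- cells for the 4 h groups, Blue+Red+ cells for the 12 h groups and Blue-Red+ cells for the 24 h groups, so time and sorting gate cannot be told apart, and the gate of the control cells was not given there.

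A resting T cell is held out of the cell cycle by an active programme. FOXO factors sit in the nucleus of resting cells and drive genes for homing, survival and cell cycle arrest, and kinases downstream of the antigen receptor phosphorylate them, after which they leave the nucleus. That control acts on the protein, which these data do not measure. Foxp1, a forkhead factor of a separate subfamily, is required for naive T cells to stay quiescent. Btg1, Btg2 and Tob1 bind the CCR4-NOT deadenylase, the complex that shortens the poly(A) tails of mRNAs, and Btg1 and Btg2 together maintain T cell quiescence. Tsc22d3 encodes GILZ, a leucine zipper protein induced by glucocorticoids and by FOXO factors.

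To show the DNA in front of these genes, RefSeq promoters (GRCm38.p6, 250 bases before to 50 after the annotated start) were read for all 7, which gave 11 windows because Foxp1 and Tsc22d3 have several starts. The part of each window upstream of any exon is printed 5′ to 3′ for Btg1, Btg2 and Tob1, whose levels had the most similar time courses among the 7, for Foxo1, which alone was called between doses, and for the Tsc22d3 start with a motif. Capitals mark a match, on either strand, to the motifs searched: GTAAACA (the forkhead core), TGTTCT (the core of the glucocorticoid receptor element), TGACTCA (AP-1) and TGGAAA (NFAT).
Btg1 chr10:96616751-96617000 (plus strand): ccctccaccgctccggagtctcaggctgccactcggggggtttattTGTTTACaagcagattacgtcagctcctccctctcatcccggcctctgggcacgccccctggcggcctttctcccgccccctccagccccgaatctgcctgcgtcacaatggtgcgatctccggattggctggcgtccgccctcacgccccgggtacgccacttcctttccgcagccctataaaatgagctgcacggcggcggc
Btg2 chr1:134079156-134079405 (minus strand): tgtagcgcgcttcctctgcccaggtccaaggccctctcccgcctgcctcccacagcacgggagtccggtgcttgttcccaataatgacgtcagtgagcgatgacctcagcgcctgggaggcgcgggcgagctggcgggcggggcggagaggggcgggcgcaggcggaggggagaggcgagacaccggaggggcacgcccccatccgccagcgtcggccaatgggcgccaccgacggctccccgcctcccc
Tob1 chr11:94211204-94211453 (plus strand): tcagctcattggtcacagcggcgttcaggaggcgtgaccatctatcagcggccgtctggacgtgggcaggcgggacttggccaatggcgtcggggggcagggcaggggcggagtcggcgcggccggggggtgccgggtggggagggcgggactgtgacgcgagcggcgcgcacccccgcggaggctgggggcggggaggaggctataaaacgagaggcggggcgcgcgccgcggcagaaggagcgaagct
Foxo1 chr3:52268087-52268335 (plus strand): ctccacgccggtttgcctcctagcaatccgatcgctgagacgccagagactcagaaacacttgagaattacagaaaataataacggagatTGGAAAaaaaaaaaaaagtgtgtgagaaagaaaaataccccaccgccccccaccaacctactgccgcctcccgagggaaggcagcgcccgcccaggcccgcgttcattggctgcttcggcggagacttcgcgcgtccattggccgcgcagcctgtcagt
Tsc22d3 chrX:140600660-140600772 (minus strand): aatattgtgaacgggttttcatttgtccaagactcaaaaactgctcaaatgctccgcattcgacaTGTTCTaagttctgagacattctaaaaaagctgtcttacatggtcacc
In the Btg1 stretch the capitals mark the reverse complement of the forkhead core, 204 bases before the start, and in Foxo1 they mark the NFAT core at 160 bases before it. The Tsc22d3 stretch holds the glucocorticoid receptor motif 185 bases before the most upstream start. No Btg2 or Tob1 base is in capitals. The other matches were TGGAAA 21 bases into Btg1 and at 159 and 37 bases before the most upstream of the Foxp1 starts read. Of the 11 windows, 7 held none of the motifs. Among 32851 windows of this length, GTAAACA was found in 3.65%, TGTTCT in 19.0%, TGACTCA in 5.2% and TGGAAA in 21.4%. The GC content of the 11 windows ran from 48.7% to 75.3%, against a median of 52.7% over all windows.

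Library totals ran from 2352800 to 6244279 counts, and 3 counts, taken as the floor of detection, came to between 0.48 and 1.28 CPM (counts scaled to the library total). The labelled cell type was checked against marker genes fixed for it. All 8 T cell markers were detected in every group, with a summed level of 1294 to 3034 CPM per library. Both CD8 T cell markers had reads in every group although the cells are labelled CD4+, and they summed to 31.1 to 47.6 CPM in control, 13.1 to 30.9 CPM at 4 h and after 80 µg at 12 h, 43.6 to 51.3 CPM after 0.8 µg at 12 h, and 34.3 to 40.9 and 20.1 to 28.8 CPM at 24 h after 0.8 µg and 80 µg. The 8 B cell markers summed to 56.5 to 122 CPM in the control libraries and to 2.90 to 61.7 CPM in the immunised ones, while the 8 myeloid markers summed to 0.69 to 32.8 CPM and the 6 dendritic cell markers to at most 3.25 CPM. The 6 erythroid markers summed to 5.31 to 212 CPM, and to 32.7 to 208 CPM within the control group. Clec9a, a dendritic cell marker, was at 0 in all libraries. Library 3 of the 0.8 µg group at 12 h stood apart from the other 2 of its group. The chi-square per degree of freedom of their gene counts was 14.8 and 14.4 in its pairs, against 3.35 for the other pair and at most 9.49 for any pair within another group, and Gm42418, a transcript with ribosomal RNA sequence, took 25.7% of its counts against 17.0% and 18.2%. Because the samples are bulk, fewer cells of a type and less RNA per cell cannot be told apart. Levels below are normalised counts, that is counts divided by the DESeq2 size factor of the library, and they are compared between groups within a gene only.

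Foxo1 (ENSMUSG00000044167, chromosome 3, 52268336 to 52353221, plus strand, GRCm38) was highest in the control and lowest at 4 h after the low dose. The control mice had 1452, 1396 and 1390.4 normalised counts. At 4 h the low dose mice had 184, 200.2 and 214, and the high dose mice had 464, 469 and 502. These 3 groups did not overlap, and each high dose mouse held over 2 times as much Foxo1 mRNA as any low dose mouse. At 12 h the values were 604, 692 and 485 after 0.8 µg and 618, 632 and 567 after 80 µg. At 24 h they were 786, 689 and 864 after 0.8 µg and 923, 919.9 and 882 after 80 µg. Without library 3 of the 0.8 µg group at 12 h, the difference of that group from control was -1.12, against -1.24 with it. The 12 h groups overlapped, and every immunised mouse remained under every control mouse at all times. Against control, the shrunken log2 fold change was -2.82 ± 0.12 (SE) at 4 h after 0.8 µg and -1.56 ± 0.11 after 80 µg (DESeq2 adjusted p = 2.46e-118 and 3.59e-44). Foxo1 was the 1 forkhead gene of the 3 whose lowest level came at 4 h after the low dose, and its group means rose from 4 h to 24 h at both doses. An exon of Gm20402 overlaps Foxo1 on the opposite strand, and that gene had 0 counts in all libraries.

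Foxo3 (ENSMUSG00000048756, chromosome 10, 42181841 to 42276755, minus strand), the other FOXO factor followed here, was counted at lower depth. Control mice had 114, 147 and 128 normalised counts, and the lowest group was 80 µg at 4 h with 60.2, 28.1 and 32.6. After 0.8 µg at 4 h the values were 62.6, 63.2 and 101. The 2 doses at 4 h did not overlap, although the closest mice, at 60.2 and 62.6, were near each other. Later group means were 55.4 ± 23.5 (SD, n = 3) and 62.6 ± 10.2 at 12 h and 108 ± 21.1 and 97.9 ± 10.8 at 24 h, for 0.8 µg and 80 µg. When the 7 groups were put in order, each overlapped its neighbour, so no step in that order exceeded the spread between mice. The fall from control was called at 4 h after 80 µg (log2 fold change -1.67 ± 0.29, DESeq2 adjusted p = 4.53e-08) and at 12 h after both doses (-1.20 ± 0.28 and -1.03 ± 0.28). The 12 h call after 0.8 µg was lost without replicate 2 (-0.94), and that after 80 µg was lost in 6 alternatives, among them TMM size factors and a fit of the 2 groups alone (-0.95).

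Foxp1 (ENSMUSG00000030067, chromosome 6, 98925338 to 99522721, minus strand) went the other way at 4 h. The low dose mice had 5369, 5425 and 5232 normalised counts at 4 h, against 3615, 3504 and 3806 in the control mice. The high dose mice had 4037, 3995 and 3338 at the same time. All 3 low dose mice lay above all other mice of the study, and the high dose group overlapped the control. At 12 h Foxp1 stood at 1767, 1712 and 1415 after 0.8 µg and at 2633, 2376 and 1973 after 80 µg. By 24 h the 2 doses overlapped, with means of 2087 ± 287 and 2109 ± 160 (SD, n = 3). Against control, the 4 h low dose difference was 0.55 ± 0.11 (DESeq2 adjusted p = 1.59e-06), which passed the p threshold but not the fold threshold, and the fall at 12 h after 0.8 µg was called at -1.15 ± 0.11 (adjusted p = 1.60e-24). Over 20 alternatives the 4 h low dose difference ran from 0.30 to 0.61. Gm20696 and Gm49348 overlap exons of Foxp1 on its own strand, and they took 1716 and 1 counts over all libraries, against 63477 for Foxp1. The nearest of their exons lie 332146 and 150573 bases from the 3′ end of Foxp1, where 3′ libraries are read.

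**Figure D1:**
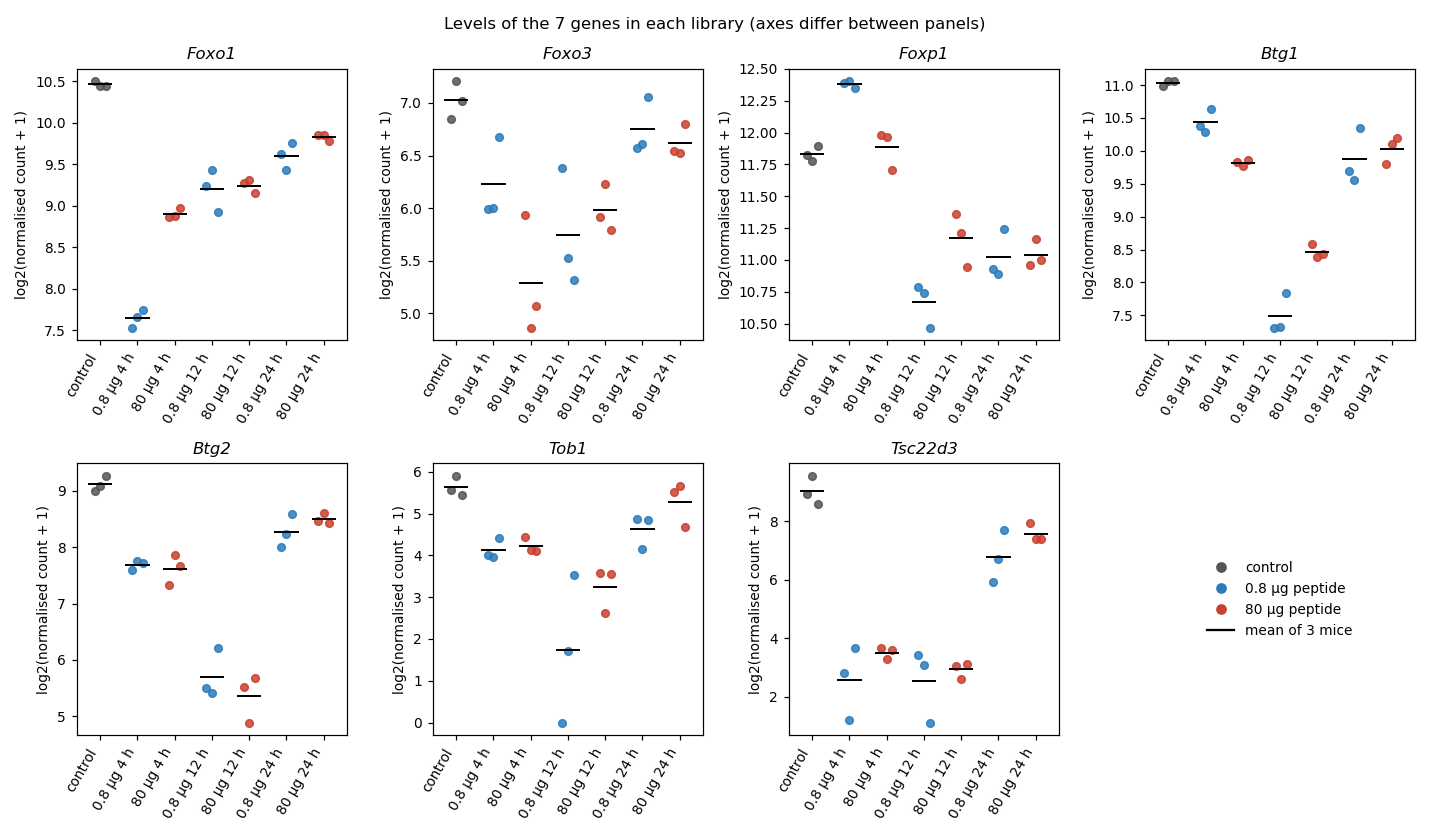
Level of each gene in every library, as log2(normalised count + 1) on the vertical axis, with a panel per gene, the 7 groups along the horizontal axis, a point per mouse and a line at the mean of the 3 plotted values. Foxo1 is lowest in the 3 low dose mice at 4 h, Foxp1 is highest in those same mice, and Btg1, Btg2 and Tob1 are lowest at 12 h.

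Btg1 (ENSMUSG00000036478, chromosome 10, 96617006 to 96622809, plus strand) had its lowest level at 12 h. Control mice had 2036, 2136 and 2138 normalised counts. At 4 h there were 1328, 1242 and 1593 after 0.8 µg and 912, 871 and 930.3 after 80 µg. At 12 h there were 158, 159 and 228 after 0.8 µg and 382, 335 and 345 after 80 µg. The order of the doses was therefore opposite at the 2 times, with the low dose above the high dose at 4 h and below it at 12 h, and neither pair of groups overlapped. By 24 h levels had risen to 829, 754 and 1307 after 0.8 µg and to 892, 1094 and 1173 after 80 µg, with the doses overlapping and all 6 mice under the control. The 12 h difference from control was -3.52 ± 0.16 after 0.8 µg and -2.55 ± 0.16 after 80 µg (DESeq2 adjusted p = 2.10e-99 and 6.83e-57), which is 11.6-fold and 5.94-fold lower in mean level.

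Btg2 (ENSMUSG00000020423, chromosome 1, 134075170 to 134079120, minus strand), also a p53 target, was also lowest at 12 h, and no dose difference passed the test. Its control values were 510.2, 544 and 615 normalised counts, and at 12 h they were 44.1, 41.4 and 72.8 after 0.8 µg and 44.8, 28.6 and 50.5 after 80 µg. The means at 4 h were 206 ± 12.5 (SD, n = 3) and 198 ± 35.1, and at 24 h 313 ± 65.0 and 362 ± 24.2, for 0.8 µg and 80 µg. The 2 doses overlapped at each time, and the control lay above all immunised mice. Btg2 was 10.5-fold below control at 12 h after 0.8 µg and 13.5-fold below after 80 µg (log2 fold change -3.39 ± 0.20 and -3.73 ± 0.21, DESeq2 adjusted p = 6.49e-61 and 2.59e-70).

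Tob1 (ENSMUSG00000037573, chromosome 11, 94211454 to 94215495, plus strand) was likewise lowest at 12 h, at a much lower depth. Control mice had 46.4, 58.8 and 42.8 normalised counts. The low dose mice at 12 h had 0, 2.26 and 10.6, from raw counts of 0, 3 and 9, and the high dose mice had 11.0, 5.14 and 10.7. Both 12 h groups lay below the control, and they overlapped each other. At 4 h the means were 16.7 ± 3.30 (SD, n = 3) after 0.8 µg and 17.9 ± 2.57 after 80 µg, and at 24 h they were 24.3 ± 6.51 and 39.6 ± 13.2. The 12 h log2 fold changes against control were -3.36 ± 0.51 and -2.36 ± 0.45 (DESeq2 adjusted p = 9.85e-10 and 8.37e-07). Leaving out replicates or libraries gave -4.35 to -2.68 after 0.8 µg and -2.49 to -1.81 after 80 µg, and the lowest value after 0.8 µg came without library 3 of that group. The standard error of Btg1 in both comparisons was 0.16.

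Tsc22d3 (ENSMUSG00000031431, chromosome X, 140539528 to 140600659, minus strand) fell the most of the 7 in every comparison with the control. Its control values were uneven, at 487, 749 and 383 normalised counts. At 4 h the low dose mice had 6.06, 1.32 and 11.9 and the high dose mice 11.6, 8.72 and 11.1. At 12 h the low dose mice had 9.80, 7.52 and 1.17 and the high dose mice 7.31, 5.14 and 7.78. No immunised mouse at 4 h or 12 h had more than 13 raw counts, and the lowest control mouse had 268. At 24 h the gene stood at 59.4, 103 and 208 after 0.8 µg and at 245, 167 and 166 after 80 µg, still under all control mice. The mean was 84.1-fold and 51.5-fold below control at 4 h, 87.5-fold and 80.0-fold below at 12 h and 4.38-fold and 2.80-fold below at 24 h, for 0.8 µg and 80 µg. At 4 h and 12 h these folds rest on few reads, and leaving out replicates or libraries gave log2 fold changes of -6.76 to -4.92 and -5.71 to -4.65 at 4 h and of -6.20 to -5.42 and -6.34 to -5.13 at 12 h. At 24 h they gave -2.87 to -1.55 after 0.8 µg, the lowest without replicate 3, and -1.66 to -0.98 after 80 µg. All 6 differences were called, with DESeq2 adjusted p from 1.94e-28 for 80 µg at 12 h to 0.0065 for 80 µg at 24 h. The last call was lost without replicate 2 (-0.98, adjusted p = 0.239).

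Each immunised group was then compared with the same 3 control mice to ask which of the 7 genes passed both thresholds, an adjusted p under 0.05 and an absolute shrunken log2 fold change above 1. The 6 comparisons share these control samples. After 0.8 µg, 4 of the 7 were called lower at 4 h (23.4% of all genes tested were called lower), 7 at 12 h (20.5%) and 2 at 24 h (5.84%). After 80 µg, 6 were called lower at 4 h (25.1%), 6 at 12 h (20.1%) and 1 at 24 h (7.91%). The counts at 4 h include Tob1, whose call was lost without replicate 1 (DESeq2 adjusted p = 0.0535) or 2 (0.101) after 0.8 µg and without replicate 2 (0.112) after 80 µg. None was called higher by DESeq2 in any of the 6 comparisons, where 17.3%, 17.2% and 11.5% of all genes were after 0.8 µg and 18.4%, 17.8% and 12.3% after 80 µg. At 12 h the share of the 7 that fell was above the background of lower calls. The 7 were chosen with earlier results of these data known, so this excess is not independent evidence about them. The median of the 7 was -3.36 after 0.8 µg and -2.36 after 80 µg, beside a median over all genes tested of -0.11 at both doses. At 24 h the genes called were Btg1 and Tsc22d3 after 0.8 µg and Tsc22d3 after 80 µg. Btg1 lost its call without replicate 2 (-0.95) and without replicate 2 of the 0.8 µg group alone (-0.97), and the count after 80 µg ran from 0 without replicate 2 to 3 with total counts as size factors. Foxo1, Foxp1 and Btg2 had an adjusted p under 0.05 at 24 h at both doses with a fold under the threshold, as did Btg1 after 80 µg (-0.99 ± 0.15), and Foxo3 and Tob1 missed the p threshold there, with log2 differences of -0.27 ± 0.28 and -0.99 ± 0.42 after 0.8 µg and -0.40 ± 0.27 and -0.31 ± 0.40 after 80 µg. After 0.8 µg and 80 µg, leaving out replicates or libraries gave -0.44 to -0.09 and -0.50 to -0.24 for Foxo3. For Tob1 it gave -1.15 to -0.60 and -0.53 to -0.09. Tob1 at 24 h after 0.8 µg was called lower by limma-voom (-1.07, adjusted p = 0.039) and with total counts as size factors (-1.11, 0.0243), and its DESeq2 adjusted p was 0.0507. Marker sums also differed in these comparisons. The T cell sum was 2859 to 3034 CPM in the control libraries and 1294 to 2637 CPM in the immunised ones, and 2 of the 3 control B cell sums lay below that of 1 library of the 0.8 µg group at 12 h (61.7 CPM). The 4 NK cell markers summed to 73.4 to 103 CPM in that group, against 17.5 to 28.1 CPM in control. Ncr1 was at 0 in that group, and over all libraries the highest values were 102 CPM for Eomes, 25.01 for Klrd1 and 4.49 for Klrb1c. The 4 regulatory T cell markers summed to 55.8 to 126 CPM in control and to 238 to 1192 CPM in the immunised libraries. Over all libraries the highest values among them were 1164 CPM for Il2ra, 541 for Ikzf2, 55.3 for Foxp3 and 24.3 for Lrrc32. Foxp3 averaged 38.9 normalised counts in control. After 0.8 µg and 80 µg it averaged 3.92 and 17.8 at 4 h, 11.5 and 23.3 at 12 h and 106 and 92.9 at 24 h. The mitochondrial share of counts was 7.26% to 7.52% in control, 5.00% to 6.48% at 4 h and 12 h and 8.22% to 9.44% at 24 h. The part of these differences in the results was not tested.

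**Figure D2:**
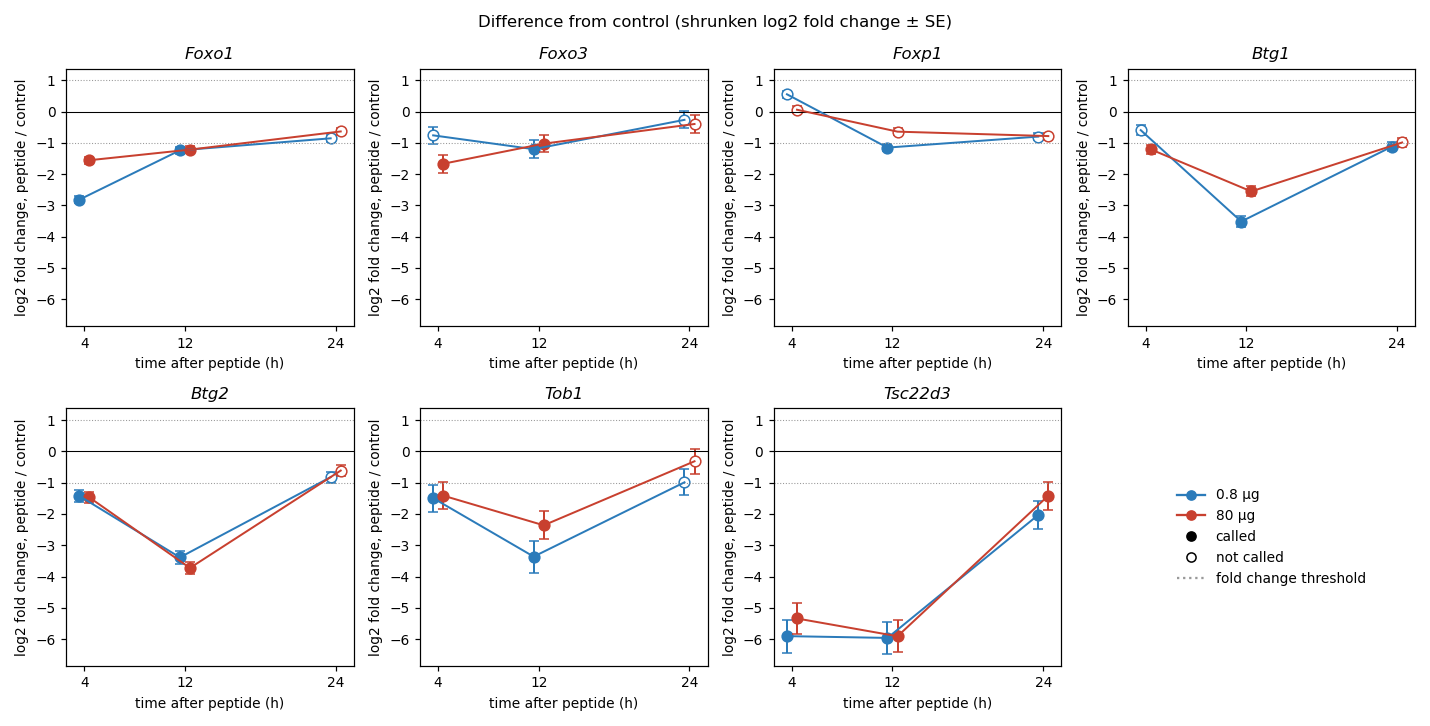
Shrunken log2 fold change of each gene against control (vertical axis) by time after peptide in hours (horizontal axis), for 0.8 µg and 80 µg, with bars for the SE and filled points where both thresholds were passed. Foxo1 starts at its lowest point, -2.82, after 0.8 µg, Btg1, Btg2 and Tob1 dip at 12 h, and Tsc22d3 stays between -5.34 and -5.96 until 12 h.

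Whether antigen dose altered these genes was tested at each time. At 4 h, Foxo1 was the 1 gene of the 7 that passed both thresholds, 2.40-fold higher after 80 µg (log2 fold change 1.26 ± 0.12, DESeq2 adjusted p = 5.54e-22). Among all genes tested 3.12% were called higher and 5.85% in either direction. By adjusted p alone, 4 of the 7 differed at 4 h, where 12% of all genes did, and the other 3 were lower after 80 µg: Foxo3 at -0.91 ± 0.30 (adjusted p = 0.024), Btg1 at -0.61 ± 0.16 (0.00138) and Foxp1 at -0.49 ± 0.11 (0.00012). The Foxo3 difference ran from -1.39 without replicate 1 to -0.50 without replicate 3, and in the latter fit its adjusted p was 0.642. Its adjusted p was also above 0.05 without replicate 2 (0.284), without replicate 3 of 0.8 µg (0.273), and without replicate 2 (0.187) or replicate 3 (0.155) of 80 µg, as well as by limma-voom (0.0537) and with the 2 groups alone (0.0544). It passed both thresholds without replicate 1 and without library 1 (-1.03) or 2 (-1.02) of 0.8 µg or library 1 of 80 µg (-1.27). Foxo1 was thus the single gene of these 4 that was higher after the higher dose. Marker sums differed between these groups as well, without overlap, at 1772 to 1903 CPM after 0.8 µg and 1409 to 1479 CPM after 80 µg for T cells, at 304 to 499 and 1140 to 1192 CPM for regulatory T cells, and at 25.8 to 70.8 and 11.5 to 22.5 CPM for NK cells. The mitochondrial share of counts did not overlap either, at 5.91% to 6.48% after 0.8 µg and 5.17% to 5.82% after 80 µg. The part of the marker sums and of this share in the dose differences was not tested. Among the regulatory T cell markers the highest values over all libraries were 1164 CPM for Il2ra and 541 for Ikzf2, against 55.3 for Foxp3. The study lists Il2ra among genes activated by antigen. Eomes, at up to 102 CPM, was the highest of the NK cell markers. These sums therefore need not follow cell numbers.

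At 12 h none of the 7 passed both thresholds with DESeq2 (2.79% of all genes did), and 2 had an unadjusted p under 0.05. These were Btg1 at 0.96 ± 0.17 (1.95-fold higher after 80 µg, adjusted p = 9.91e-07) and Foxp1 at 0.51 ± 0.11 (adjusted p = 0.000216), both of which also passed the adjusted p, as 6.27% of all genes did. edgeR called none of the 7 at 12 h, and limma-voom called Btg1. DESeq2 also called Btg1 without replicate 3 (1.16), without library 3 of the 0.8 µg group (1.14) and without library 2 of the 80 µg group (1.005), and Foxo1, at 0.02 with all libraries, was at -0.097 without library 3 of the 0.8 µg group. Tob1 had a log2 difference of 1.00 ± 0.54, but with 12 and 30 reads behind the groups its adjusted p was 0.324, and leaving out replicates or libraries gave 0.29 without replicate 1 to 1.97 without library 3 of the 0.8 µg group (DESeq2 adjusted p = 0.0523). Marker sums again did not overlap between the doses at 12 h, at 73.4 to 103 CPM after 0.8 µg and 8.68 to 15.4 CPM after 80 µg for NK cells, at 43.6 to 51.3 and 13.1 to 22.7 CPM for CD8 T cells, at 1294 to 1338 and 1496 to 1595 CPM for T cells, and at 315 to 469 and 594 to 662 CPM for regulatory T cells. Nor did the mitochondrial share of counts, at 6.00% to 6.09% after 0.8 µg and 5.00% to 5.53% after 80 µg. The part of the marker sums and of this share in the 12 h values was not tested. At 24 h none was called (1.56% of all genes were) and 1, Foxo1, had an unadjusted p under 0.05, with a difference of 0.22 ± 0.11 and an adjusted p of 0.266. Neither edgeR nor limma-voom called any of the 7 at 24 h. Tsc22d3, at 0.62 with all libraries (DESeq2 adjusted p = 0.554), was called without replicate 3 (1.31, adjusted p = 0.00374) and without library 3 of the 0.8 µg group (1.24, adjusted p = 0.00741), and was at 0.10 without replicate 1. The marker sums that did not overlap between doses at 24 h were those of regulatory T cells, at 390 to 701 CPM after 0.8 µg and 238 to 271 CPM after 80 µg, of CD8 T cells, at 34.3 to 40.9 and 20.1 to 28.8 CPM, of NK cells, at 13.4 to 20.1 and 10.5 to 11.1 CPM, and of dendritic cells, at 0.97 to 3.25 and 0 to 0.16 CPM. The mitochondrial share of counts was 9.08% to 9.44% after 0.8 µg and 8.22% to 9.01% after 80 µg, again without overlap. The part of the marker sums and of this share in the 24 h values was not tested. At 12 h and 24 h too, the regulatory T cell sum included Il2ra and the NK cell sum Eomes, so these sums need not follow cell numbers.

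The effect of dose differed between times for Foxo1, Btg1 and Foxp1, by the likelihood ratio test of dose, time and their interaction in the 18 immunised samples. The adjusted p was 1.36e-10 for Foxo1, 5.80e-08 for Btg1 and 3.62e-07 for Foxp1, and 10.3% of all genes tested passed. Btg1 and Foxp1 changed the sign of their dose difference between 4 h and 12 h, with each sign past the adjusted p threshold, whereas Foxo1 went from 1.26 at 4 h to 0.02 at 12 h. The other 4 genes missed the threshold, at adjusted p = 0.195 for Foxo3, 0.508 for Btg2, 0.712 for Tob1 and 0.866 for Tsc22d3.

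**Figure D3:**
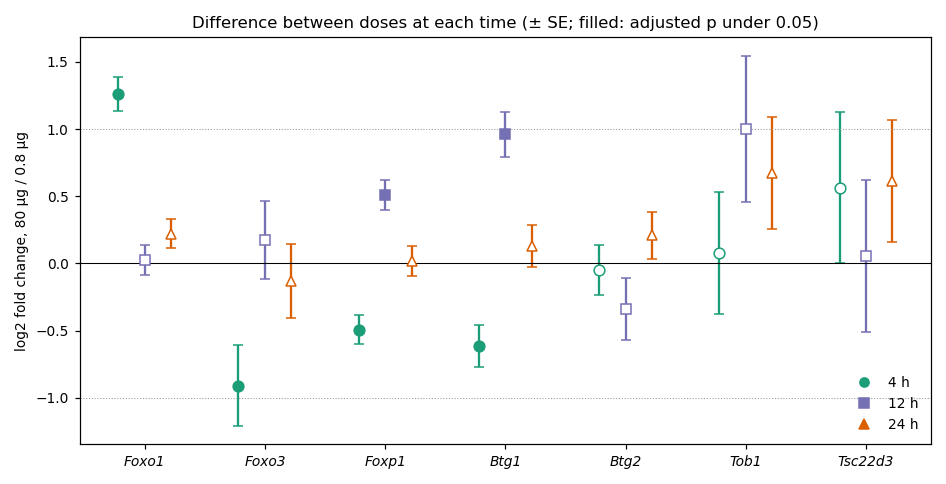
Shrunken log2 fold change of 80 µg over 0.8 µg (vertical axis) for each gene at 4 h, 12 h and 24 h, with bars for the SE, and filled where the adjusted p was under 0.05. Foxo1 is high at 4 h alone, and Btg1 and Foxp1 lie below 0 at 4 h, above it at 12 h and near it at 24 h.

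The steps between successive times, in which the sorting gate changed as well, are given next. From 4 h to 12 h after 0.8 µg, Foxo1 rose (1.58 ± 0.12, DESeq2 adjusted p = 1.35e-35) while Foxp1 fell by 1.70, Btg1 by 2.92, Btg2 by 1.96 and Tob1 by 1.87 on the log2 scale. These are 1 of 7 higher, where 12.6% of all genes were called higher, and 4 of 7 lower, where 7.98% were. The fall of Tob1 was not called without replicate 1 (-1.32, DESeq2 adjusted p = 0.123) or without replicate 2 (-1.501, DESeq2 adjusted p = 0.0737). All fits that left out a replicate or library gave -2.85 to -1.32 for Tob1. Over the same step after 80 µg, 2 of the 7 were called lower (9.1% of all genes), Btg1 at -1.34 ± 0.16 and Btg2 at -2.25 ± 0.21. From 12 h to 24 h, Btg1, Btg2, Tob1 and Tsc22d3 were called higher after 0.8 µg (17.1% of all genes) and again after 80 µg (16.7%). Tsc22d3 had the largest of these rises, 20.0-fold after 0.8 µg and 28.6-fold after 80 µg, followed with all libraries by Btg2 at 5.94-fold and 8.77-fold. Tob1 rose 5.68-fold and 4.44-fold. After 0.8 µg the fits that left out a replicate or library gave log2 fold changes of 1.62 to 3.35 for Tob1. For Btg2 they gave 2.40 to 2.83. Leaving out replicates or libraries gave log2 fold changes of Tsc22d3 of 3.06 to 4.35 and 4.11 to 4.79, the lowest after 0.8 µg without replicate 3. Foxp1 differed over this step by 0.35 ± 0.11 after 0.8 µg and -0.14 ± 0.11 after 80 µg, neither past both thresholds. Leaving out replicates or libraries gave 0.13 (without replicate 3) to 0.45 and -0.25 to -0.0088 (without replicate 1).

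To describe which genes had the most similar pattern, the 7 group means of log2(normalised count + 1) were centred within each gene and the root mean square difference between genes was taken. Each of the 7 was compared with 6636 genes, which were those that averaged 50 or more normalised counts and the others of the 7, with Tob1 included although it averaged less. Among the 7 themselves the closest pair was Btg1 and Tob1 (0.45), then Btg2 and Tob1 (0.54) and Btg1 and Btg2 (0.55), and the closest forkhead pair was Foxo1 and Foxo3 (0.70). Tsc22d3 differed from every other member by at least 1.65. The nearest genes to Foxo1 were Irf2bpl (0.22), Cyth1 (0.24) and Zfp512 (0.25), and to Foxp1 they were Srcap (0.13), Crebzf (0.14) and Gm43466 (0.15). Foxo3 was nearest to Rev3l (0.11), Hcfc2 (0.11) and Zbtb2 (0.15), all of which lie on chromosome 10 as Foxo3 does, at least 2306630 bases from it. These lists are not equally particular, since 1109 genes lay within 0.5 of Foxo3, 1031 of Foxp1 and 214 of Foxo1, against 4 to 13 for each of the other 4. For Tob1 this number was 12 here, 21 on TMM-scaled log2 CPM and 267 on the deposited rlog values, where that of Foxo1 was 250. Btg1 was nearest to Hcst (0.31), Kif21b (0.32) and Gabbr1 (0.33), and Btg2 to the long noncoding RNA Mirt1 (0.21), Ppp3ca (0.32) and Kdm3a (0.40). Tob1 was nearest to Ms4a6b (0.35), Cd5 (0.35) and Gimap6 (0.39), none of which stayed among its nearest 3 when the deposited rlog values were used. For Tsc22d3 the nearest gene was S1pr1 (0.19), the receptor that lets T cells leave lymphoid tissue, ahead of Scml4 (0.38) and the pseudogene Hmgb1-ps8 (0.40), whose reads may be shared with Hmgb1.

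Relatives of the 7 did not all follow them. Foxo4 had a control mean of 73.8 ± 13.7 normalised counts (SD, n = 3), 5 reads over the 3 low dose libraries at 4 h and 0 reads in the 3 high dose libraries, which is at least 24.7-fold lower than control, and it stood at 34.5 ± 8.69 and 40.3 ± 2.62 at 24 h. All 24 h mice were under the control mice, with differences of -1.07 (DESeq2 adjusted p = 0.0107) after 0.8 µg and -0.85 (adjusted p = 0.0422) after 80 µg, of which the first was called, in 2 of 9 fits that left out a replicate or library. Foxp4 rose at 4 h from 44.9 ± 8.10 in control to 280 ± 38.7 after 0.8 µg and 134 ± 14.0 after 80 µg, and so was lower after the high dose, as Foxp1 was (log2 fold change -1.05 ± 0.23, DESeq2 adjusted p = 8.81e-05). At 24 h Foxp4 was also called lower after 80 µg, at 29.9 ± 10.1 against 63.6 ± 2.38 (-1.04 ± 0.27, DESeq2 adjusted p = 0.0036). Foxp1 had a dose difference of 0.02 there. Foxp3, the factor of regulatory T cells, was lower than control after 0.8 µg at 4 h (-2.94 ± 0.57) and at 12 h (-1.57 ± 0.50), and at 4 h it was higher after 80 µg than after 0.8 µg (1.89 ± 0.58, adjusted p = 0.0118). After 80 µg Foxp3 was not called against control at 4 h (-1.05 ± 0.49, DESeq2 adjusted p = 0.0563) or 12 h (-0.69 ± 0.48, 0.226). At 24 h its values were 48.5 to 193 normalised counts after 0.8 µg and 79.5 to 103 after 80 µg, against 14.2 to 56.7 in control, with differences of 1.38 ± 0.46 and 1.20 ± 0.46. The first was 0.63 without library 3 of the 0.8 µg group and the second 0.84 without control library 2. In 9 fits that left out a replicate or library, Foxp3 kept its call in 6 and 3 at 24 h, in 6 at 12 h after 0.8 µg and in 4 between doses at 4 h, and the 4 h call of Foxp4 between doses was kept in 4. Foxo6 and Foxp2 had too few reads to be tested.

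In the BTG/Tob and TSC22 families, Tob2 and Btg3 were above control at 4 h while Tob1, Btg1 and Btg2 were below it. Tob2 had 227 ± 28.7 normalised counts in control, 414 ± 28.9 after 0.8 µg and 545 ± 42.0 after 80 µg at 4 h, and the rise was called after 80 µg (1.26 ± 0.18, DESeq2 adjusted p = 1.55e-11). Btg3 went from 5.84 ± 2.84 to 32.6 ± 6.46 and 38.6 ± 11.1, called at both doses. Tsc22d4 fell at 4 h as Tsc22d3 did, but by less, from 677 ± 21.1 to 211 ± 23.3 and 134 ± 11.8, and Tsc22d2 had 239 ± 40.3 in control and 390 ± 12.5 and 419 ± 34.8 at 4 h, under the fold threshold. Tsc22d1 was called lower at 24 h after 80 µg (-1.94 ± 0.43), and Btg4 was not tested for want of reads. Of the 11 CCR4-NOT subunits, which the BTG/Tob proteins bind, at most 1 was called in each direction in any comparison with control, and the medians ran from 0.02 to 0.35. Of all genes, 17.3% and 18.4% were higher and 23.4% and 25.1% lower at 4 h, and 17.2% and 17.8% were higher and 20.5% and 20.1% lower at 12 h. At 24 h 1 of the 11 was higher and 0 lower at each dose, near the 11.5% and 12.3% of all genes that were higher. Cnot6l, a catalytic subunit, had 1280 ± 99.2 normalised counts in control and 464 ± 14.2 to 542 ± 83.9 in the 4 groups at 4 h and 12 h, and Cnot9 was above control at both doses at 12 h (1.40 ± 0.21 and 1.53 ± 0.21).

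Of 22 genes listed as FOXO targets, 17 were lower and 3 higher than control at 4 h, at both doses. The median log2 fold change was -4.11 after 0.8 µg and -3.79 after 80 µg, beside -0.13 and -0.15 over all genes tested, of which 23.4% and 25.1% were lower and 17.3% and 18.4% higher. At 12 h 16 and 17 were lower (20.5% and 20.1% of all genes), and at 24 h 5 were lower at each dose (5.84% and 7.91%). Il7r, the receptor chain for the survival cytokine IL-7, stood at 2627 ± 594 normalised counts in control, 14.5 ± 3.44 after 0.8 µg and 64.5 ± 11.4 after 80 µg at 4 h. Ccr7, a lymph node homing receptor, stood at 1225 ± 121, 120 ± 23.6 and 274 ± 58.4. Between doses at 4 h, where 3.12% of all genes were called higher and 5.85% in either direction, 2 of the 22 were called higher after 80 µg, Il7r (2.04 ± 0.35, DESeq2 adjusted p = 1.43e-07) and Ccr7 (1.18 ± 0.17), the same direction as Foxo1. Another 2 were called lower, Trib1, a pseudokinase (-1.43 ± 0.16), and Cdkn1b, the p27 cell cycle inhibitor (-1.12, adjusted p = 0.00187). The other 18 were not called, and the median of the 22 was -0.02, beside -0.02 over all genes tested. In 9 fits that left out a replicate or library, Ccr7 kept its call in 8 and was at 0.96 without replicate 1, and Cdkn1b kept its call in 7. S1pr1 fell with these, from 1328 ± 202 to 15.7 ± 14.1 and 35.6 ± 3.44 at 4 h, and stood at 337 ± 134 and 453 ± 8.81 at 24 h. Trib1 and Bcl2l11, the death factor Bim, rose at 4 h, Trib1 from 25.7 ± 8.05 to 1068 ± 119 and 394 ± 49.7.

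Of 21 genes for PI3K, AKT and mTORC2, the kinases that control FOXO proteins, 8 and 10 were lower and 2 were higher than control at 4 h, for 0.8 µg and 80 µg, with medians of -0.81 and -0.55. Over all genes, 23.4% and 25.1% were lower and 17.3% and 18.4% higher, with medians of -0.13 and -0.15. Pik3r5, a regulatory subunit of PI3K, had 248 ± 48.7 normalised counts in control and 7.79 ± 1.68 and 15.2 ± 9.88 at 4 h, and Akt2 was called higher at both doses (1.12 and 1.75), the first in 6 of 9 fits that left out a replicate or library. Sgk1, a kinase that phosphorylates FOXO factors and is itself a glucocorticoid target, was 2.47-fold higher after 80 µg than after 0.8 µg at 4 h (1.28 ± 0.30, DESeq2 adjusted p = 0.000314). Of 12 glucocorticoid response genes, 6 were higher and 3 lower at 4 h after 0.8 µg, and 7 were higher and 3 lower after 80 µg, with medians of 0.85 and 1.54. The share that was lower was near that of all genes (23.4% and 25.1%), and 17.3% and 18.4% of all genes were higher. At 12 h 2 and 3 of the 12 were higher (17.2% and 17.8% of all genes) and 4 were lower at each dose (20.5% and 20.1%), with medians of -0.33 and -0.35. At 24 h 1 was called in each direction after 0.8 µg and 2 after 80 µg, with medians of -0.24 and -0.15, where 11.5% and 12.3% of all genes were higher and 5.84% and 7.91% lower, so these counts were near the background. Between doses, 11 of these genes were tested. After 80 µg 3 were higher and 1 lower at 4 h, 3 were higher at 12 h and 1 was at 24 h. Of all genes, 5.85%, 2.79% and 1.56% were called in either direction at these times. The list includes the metallothioneins Mt1 and Mt2, whose counts after 0.8 µg at 4 h were at the floor. After 80 µg they were at least 24.4-fold and 26.6-fold higher at that time. The study ties both genes to zinc bioavailability and to strong receptor signalling, so these counts need not reflect glucocorticoids. Per1, a clock gene induced by glucocorticoids, rose at 4 h from 48.2 ± 4.73 to 224 ± 25.8 and 218 ± 22.6, and Ddit4, an mTOR inhibitor, fell from 911 ± 375 to 138 ± 30.4 and 48.4 ± 26.0. Nr3c1, the glucocorticoid receptor itself, had 441 ± 27.6 in control and 180 ± 12.1 and 128 ± 18.9 at 4 h.

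Of 25 other regulators of quiescence, 12 were lower and 5 higher at 4 h at each dose, where 23.4% and 25.1% of all genes were lower after 0.8 µg and 80 µg and 17.3% and 18.4% higher. At 12 h 15 and 13 were lower (20.5% and 20.1% of all genes), and at 24 h 4 and 2 were (5.84% and 7.91%), the last a share near that of all genes. The medians were -0.92 and -0.39 at 4 h and -1.25 and -1.06 at 12 h. Mxd4, a Myc antagonist, had 578 ± 39.3 normalised counts in control, 8.39 ± 3.22 and 2.73 ± 1.64 at 4 h and 666 ± 242 and 370 ± 47.8 at 24 h. Between doses at 4 h, Satb1, a chromatin organiser, and Ypel5 were higher after 80 µg and Dgka, Dgkz and Ypel3 were lower. These are 2 higher and 3 lower of 24 tested, with a median of -0.04 beside -0.02 over all genes, where 5.85% were called in either direction, and leaving out replicates or libraries gave 1 or 2 higher and 2 or 3 lower. Ypel5 kept its call in 5 and Ypel3 in 3 of these 9 fits. The difference of Satb1 was 1.81 ± 0.19 on the log2 scale (DESeq2 adjusted p = 1.40e-19). Of 24 proliferation genes, 5 were higher and 9 lower at 4 h after 0.8 µg, and 7 were higher and 8 lower after 80 µg, with medians of -0.23 and 0.24 (17.3% and 18.4% of all genes were higher there, and 23.4% and 25.1% lower). At 12 h 18 and 21 were higher (17.2% and 17.8% of all genes) and at 24 h 20 and 19 (11.5% and 12.3%), where the medians were 3.43 and 3.76. Between doses at 12 h, 7 of 23 tested were called higher after 80 µg and 0 lower, with a median of 0.75. Of all genes, 2.79% were called there in either direction. At 4 h 1 was called higher between doses and at 24 h 0 were (5.85% and 1.56% of all genes in either direction). Myc rose at 4 h from 53.8 ± 13.8 to 918 ± 135 and 1188 ± 69.1, and Mki67, a marker of cycling cells, reached 2499 ± 514 and 3443 ± 291 at 24 h from 35.8 ± 14.5 in control. At 24 h, when 20 and 19 of the 24 proliferation genes were above control, Btg1, Btg2 and Tsc22d3 had risen from 12 h and still lay below control in mean level at both doses.

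**Figure D4:**
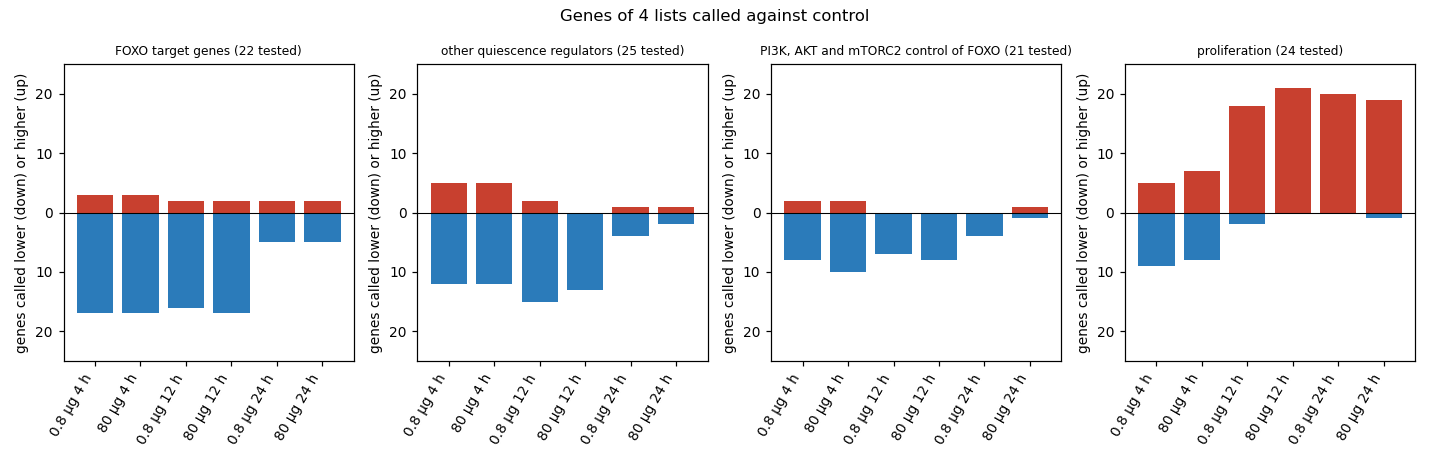
Number of genes of 4 lists called higher (bars up) or lower (bars down) than control on the vertical axis, in each of the 6 immunised groups on the horizontal axis. FOXO target genes are mostly lower at 4 h and 12 h, with 5 lower at 24 h, while 18 to 21 proliferation genes are higher from 12 h on.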

How the data were processed

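RNA of 21 samples (7 groups of 3 mice, which the design text calls biological triplicates) was sequenced as QuantSeq 3′ mRNA libraries. The authors merged the lanes, trimmed with Bbduk, aligned to GRCm38 (mm10) with STAR 2.5.2a and counted reads per gene with HTSeq. The deposited counts are raw, and the deposited log2 values are DESeq2 rlog values, used here only to check similar genes. The annotation release, strand setting and use of molecular identifiers are not given in the sources used here. The 7 genes and the other gene lists were chosen with earlier results of these data known.

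Genes with at least 10 reads in total entered DESeq2 1.42.0 (R 4.3.3), with 1 coefficient per group over all 21 samples, normal-prior shrinkage and Benjamini-Hochberg adjustment over all genes tested in a comparison. A gene was called at an adjusted p under 0.05 and an absolute shrunken log2 fold change above 1. The 13 comparisons were dose at each time, each immunised group against control and successive times, and a likelihood ratio test took the dose by time interaction in the 18 immunised samples. Fold values in mean level are ratios of mean normalised counts. Alternatives were edgeR 4.0.16, limma-voom 3.58.1, other size factors, filters and thresholds, a fit of the 2 groups alone, a replicate block and leaving out replicates or single libraries. Leaving out libraries for single list genes other than the 7 was chosen after seeing the data. The scripts were tested on simulated data. Named genes were the 7, the other FOXO, FOXP, BTG/Tob and TSC22 genes, the 3 most similar genes of each, and from every other list up to 2 genes each way per comparison, ranked by shrunken fold change among called genes that averaged 20 or more normalised counts and whose groups did not overlap. Marker sums are given as CPM computed from the deposited counts. Precision is limited by depth, and floors cover counting error only.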

Additional observations from a re-analysis of the deposited data

Results flagged for a closer look

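The dose effect differed between times, by the likelihood ratio test of the interaction, for 3 of the 7 genes. For Foxo1 the log2 difference between doses spanned 1.24 from its lowest to its highest time, being 1.26 at 4 h and 0.02 at 12 h. For Btg1 it spanned 1.58, from -0.61 at 4 h to 0.96 at 12 h, and for Foxp1 it spanned 1.00, from -0.49 at 4 h to 0.51 at 12 h. The sorting gate changed with time too, so the 2 cannot be told apart.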

How the results depend on the processing

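Of 1896 alternative values for the 7 genes, 1798 kept direction and side of the threshold, 52 passed it newly, 15 lost it and 31 changed sign, none of them called in the reported fit. By adjusted p alone the number called rose to 4 for dose at 4 h, 2 for dose at 12 h, 7 and 5 for 0.8 µg against control at 4 h and 24 h, 5 for 80 µg against control at 24 h, 7 for 0.8 µg from 12 h to 24 h and 4 for 80 µg from 4 h to 12 h. With limma-voom it was 1 for dose at 12 h (Btg1), and limma-voom and both total-count scalings also called Tob1 at 24 h after 0.8 µg. For 80 µg against control at 24 h it was 3 with total counts as size factors and 2 with total counts less 3 abundant RNAs. Causes were not tested.

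Signs changed with total counts for Foxo1 between doses at 12 h (-0.0144), Foxp1 between doses at 24 h (-0.0930), Foxp1 at 80 µg and 4 h against control (-0.0997) and Tsc22d3 at 0.8 µg from 4 h to 12 h (0.113). Without the 3 abundant RNAs the last 3 were -0.0619, -0.223 and 0.0706, and with only the 2 groups compared Foxp1 between doses at 24 h was -0.00934. These scalings moved the median of all genes by -0.28 to 0.16.

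Leaving out a replicate number or 1 library gave 1 to 2 called genes for dose at 4 h, 0 to 1 at 12 h and 0 to 1 at 24 h. Against control the ranges were 3 to 5, 6 to 7 and 1 to 2 after 0.8 µg, and 5 to 6, 5 to 6 and 0 to 2 after 80 µg, at 4 h, 12 h and 24 h. For the time steps they were 4 to 5 and 4 to 5 after 0.8 µg and 2 to 3 and 4 to 4 after 80 µg, and 3 to 4 genes had an interaction (Foxo3 without replicate 1, adjusted p = 0.0262, DESeq2). The log2 values that changed sign ran, between doses at 4 h, from -0.167 to 0.0756 for Btg2 and from -0.0898 to 0.298 for Tob1. Between doses at 12 h they ran from -0.0974 to 0.150 for Foxo1, -0.0950 to 0.590 for Foxo3 and -0.415 to 0.325 for Tsc22d3, and at 24 h from -0.231 to 0.0369 for Foxo3, -0.112 to 0.159 for Foxp1 and -0.0443 to 0.412 for Btg1. From 4 h to 12 h after 0.8 µg they ran from -0.946 to 0.00871 for Foxo3 and -0.499 to 0.833 for Tsc22d3.

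1 replicate number decided the calls, against control unless stated, of Tob1 at 4 h after 0.8 µg (adjusted p = 0.0535 without replicate 1, 0.101 without replicate 2) and 80 µg (0.112 without replicate 2), Tob1 from 4 h to 12 h after 0.8 µg (0.123 and 0.0737 without replicates 1 and 2), Foxo3 at 12 h after 0.8 µg (-0.94 without replicate 2), Btg1 at 24 h after 0.8 µg (-0.95 without replicate 2) and Tsc22d3 at 24 h after 80 µg (-0.98 without replicate 2). Foxo3 at 12 h after 80 µg lost its call with TMM size factors, with the 2 groups alone (-0.95), without replicate 3 and without single libraries (control 2, 80 µg 12 h 1 or 3). Between doses, calls appeared without replicate 3 for Tsc22d3 at 24 h (1.31) and Btg1 at 12 h (1.16), and without replicate 1 for Foxo3 at 4 h (-1.39, against -0.50 without replicate 3).

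The replicate numbers did not pair the mice, with correlations of deviations from -0.168 to 0.203, never all 3 over 0.1. A replicate block left the number of genes called at 1, 0 and 0 between doses and changed no call. Over all genes, only the 2 groups compared gave 145 calls for dose at 12 h (311 in the reported fit) and 83 at 24 h (151), limma-voom gave 282 at 24 h, and adjusted p alone gave 1301, 699 and 573 for dose at 4 h (635), 12 h and 24 h. Adjusted p alone also gave 4551 and 5048 against control at 24 h (2185 and 2615) for 0.8 µg and 80 µg, 4822 and 5415 from 4 h to 12 h (2532 and 3130) and 5689 and 5907 from 12 h to 24 h (3434 and 3601). With total counts the share of calls that were higher was 39.2% for dose at 24 h (57.0% in the reported fit), 54.0% and 41.4% against control at 24 h (66.2% and 60.9%), 71.3% from 4 h to 12 h after 0.8 µg (61.1%) and 49.8% from 12 h to 24 h after 80 µg (61.5%). Without the 3 abundant RNAs it was 45.1% for dose at 24 h and 46.9% for 80 µg against control at 24 h. Few reads limit Tob1 and Tsc22d3 at 4 h and 12 h.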
